A study of Mus musculus with 12 samples.

Results

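Lyz2, Chil3, Cd68, Emr1, Itgax, Itgam, Cd14 and Cybb are 8 genes by which macrophages of the lung are usually recognised. They were taken by symbol from a NanoString panel of 770 mouse immune genes, and all 8 were present. The panel counts RNA molecules directly with fluorescent barcodes, without amplification, and it was applied to RNA extracted from macrophages and T cells that had been purified out of lung tumour suspensions. The mice were a genetically engineered lung tumour model on a mixed background, and all groups share this model and the tissue, lung tumour. The groups were macrophages under JQ1, a bromodomain inhibitor, macrophages under ricolinostat, an HDAC inhibitor, macrophages under vehicle, and T cells under the same 3 agents, with 2 libraries in each of the 6 groups. Age, dose and duration of treatment are not stated in the labels. It is also not stated whether both libraries of 1 group were made from different mice. Each p-value below therefore refers only to how far these libraries differ among themselves, and that may be technical.

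Resident macrophages of the mouse airspace are known for abundant lysozyme and chitinase-like protein, for the integrin alpha chain CD11c and for little of the related chain CD11b, while monocytes recruited into a tumour typically carry CD11b. Lyz2 encodes lysozyme, a bacteriolytic enzyme that alveolar type II epithelial cells also make, and Chil3 encodes the secreted chitinase-like protein Ym1. Cd68 is a lysosomal membrane glycoprotein, Emr1 (Adgre1 in current nomenclature) encodes the F4/80 antigen, an adhesion receptor, Itgax and Itgam encode CD11c and CD11b, Cd14 is a co-receptor for lipopolysaccharide, and Cybb is the catalytic subunit of the phagocyte NADPH oxidase. Lyz2 and Chil3 have close paralogues, Lyz1 and Chil4, and the probe sequences, which decide how far these are counted too, are not given in the sources used here.

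The myeloid factor PU.1, encoded by Spi1, is known to act on promoters of this class of gene through a core that reads GAGGAA, or TTCCTC on the opposite strand. The 250 bases before the annotated start were read for 6 of the 8 genes from RefSeq (GRCm38.p6). Itgam and its neighbour Itgax are shown because their signals moved together in the libraries that stand apart, and Cd68 and Cybb because they passed between JQ1 macrophages and JQ1 T cells when those libraries were left out; the sequences run 5′ to 3′ on the gene's own strand, with matches in capitals.
Itgam, chr7:128062390-128062639, plus strand: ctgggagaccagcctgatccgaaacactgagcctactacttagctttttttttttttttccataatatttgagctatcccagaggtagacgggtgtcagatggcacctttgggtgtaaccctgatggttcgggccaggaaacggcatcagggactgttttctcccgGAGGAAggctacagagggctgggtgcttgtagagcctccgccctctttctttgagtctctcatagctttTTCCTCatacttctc
Itgax, chr7:128129300-128129549, plus strand: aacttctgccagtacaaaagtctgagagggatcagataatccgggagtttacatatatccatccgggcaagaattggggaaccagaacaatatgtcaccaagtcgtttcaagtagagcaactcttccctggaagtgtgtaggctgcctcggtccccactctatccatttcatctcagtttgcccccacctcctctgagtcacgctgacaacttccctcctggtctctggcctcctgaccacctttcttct
Cd68, chr11:69666171-69666420, minus strand: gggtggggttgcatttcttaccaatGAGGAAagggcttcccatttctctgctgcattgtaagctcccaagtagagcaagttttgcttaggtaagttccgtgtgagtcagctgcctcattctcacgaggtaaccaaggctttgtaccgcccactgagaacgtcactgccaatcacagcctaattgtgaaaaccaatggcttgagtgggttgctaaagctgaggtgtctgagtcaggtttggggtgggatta
Cybb, chrX:9469325-9469574, minus strand: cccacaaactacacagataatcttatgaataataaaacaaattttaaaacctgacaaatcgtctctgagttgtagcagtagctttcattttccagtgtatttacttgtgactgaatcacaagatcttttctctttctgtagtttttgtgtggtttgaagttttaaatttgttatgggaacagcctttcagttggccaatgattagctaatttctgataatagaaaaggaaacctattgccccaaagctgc
The Itgam window held the core at 84 bases and its reverse complement at 15 bases before the start, and the Cd68 window held it once, at 225 bases. No match stood in the windows of Itgax, Cybb, Lyz2 and Chil3, and none of the 6 held TATAAA on either strand. Over 32851 promoter windows of the same length, 23.3% held GAGGAA on either strand and 12.4% held TATAAA, so a match is a description of these letters and not of a binding site.

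The deposited table gives 1 normalised signal per gene and library. Low values fell on evenly spaced steps (100% within 0.1 of one), and the spacing gives an estimated 773600 to 1542300 counts above background in the 6 macrophage libraries and 1454900 to 2082100 in the 6 T cell libraries. The second ricolinostat library of each cell type stood apart from the other 10: Spearman correlations with these were 0.731 to 0.815, but 0.932 between the pair, against 0.978 to 0.985 between replicates of the 4 JQ1 and vehicle groups. The group comparisons are therefore given with and without both, except the fit with paired libraries, which was run with all 12 only. The cell type labels were only partly borne out. Of 21 T cell identity genes such as Cd3e and Lck, 2 to 8 exceeded a signal of 20 in the macrophage libraries, 4 and 5 did so in the JQ1 T cell libraries, 21 and 20 among ricolinostat T cells, and 21 in both vehicle T cell libraries. JQ1 T cells below are the libraries so labelled. All 8 macrophage genes exceeded 20 in all 12 libraries, those of T cells included. Under vehicle, the 21 T cell genes summed to 7053 and 7747 in T cells and to 632 and 821 in macrophages. There, 39 other macrophage and monocyte genes summed to 463102 and 548828 in T cells and to 503222 and 589926 in macrophages. The contrasts of macrophages minus T cells below thus compare libraries that both carry macrophage signal.

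Together the 8 genes took 31.1% to 37.6% of all signal on the panel in 10 libraries, T cell libraries included, and 15.4% in the second ricolinostat macrophage library and 15.3% in the matching T cell library. Most of this was Lyz2 and Chil3, which alone took 27.5% to 34.9% in the 10 libraries. With all 8 above 20 in every library, the fractions were not told apart by presence or absence of the 8 transcripts. In bulk RNA of this kind, fewer cells of a type and less RNA per cell cannot be told apart.

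**Figure D1:**
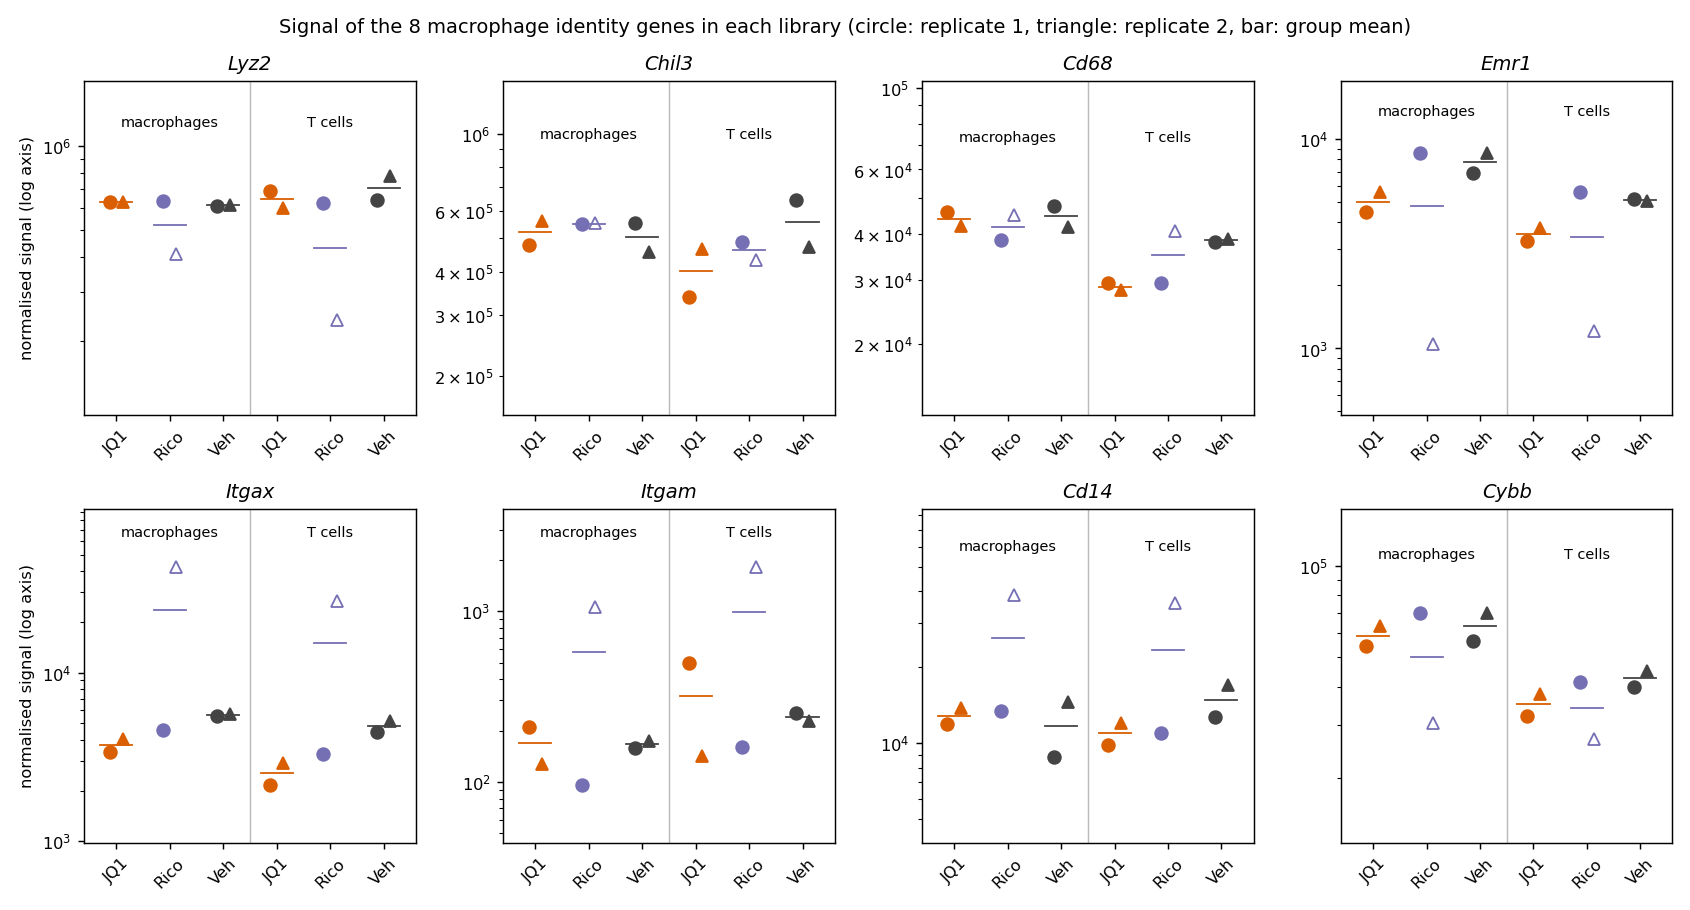
Normalised signal of each gene in each of the 12 libraries, on log axes that differ between panels, with macrophage groups left of T cell groups and JQ1, ricolinostat (Rico) and vehicle (Veh) from left to right; circles are replicate 1, triangles replicate 2 and bars group means. Open triangles mark the second ricolinostat libraries, which lie far from their partners for Itgax, Itgam, Cd14 and Emr1, while Cybb is higher in all 5 other macrophage libraries than in the 5 other T cell libraries.

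Lyz2, the lysozyme gene, had signals of 627880 and 627387 in JQ1 macrophages, 634780 and 409122 in ricolinostat macrophages, and 610840 and 613517 in vehicle macrophages. T cell libraries had 688469 and 600693 under JQ1, 626098 and 237520 under ricolinostat, and 639920 and 777341 under vehicle. Apart from the second ricolinostat libraries, the 5 macrophage libraries lay within 1.04-fold of each other and inside the range of the 5 T cell libraries. Chil3, the Ym1 gene, had 478487 and 561596 in JQ1 macrophages, 547862 and 552089 in ricolinostat macrophages, and 553739 and 455709 in vehicle macrophages. Its T cell signals were 339415 and 464420 under JQ1, 488012 and 433493 under ricolinostat, and 643822 and 470097 under vehicle. The 2 cell types overlapped for Chil3 as well, and its second ricolinostat libraries did not depart from the rest.

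Cd68, the lysosomal glycoprotein, had signals of 45974 and 42133 in JQ1 macrophages, 38598 and 44974 in ricolinostat macrophages, and 47588 and 41856 in vehicle macrophages. In T cells it had 29305 and 28050 under JQ1, 29373 and 40800 under ricolinostat, and 38097 and 38680 under vehicle. The JQ1 T cell libraries were the lowest pair, and the cell types overlapped, with vehicle T cell replicate 2 and ricolinostat T cell replicate 2 above the lowest macrophage library. Emr1, the F4/80 gene, had 4480 and 5590 in JQ1 macrophages, 8574 and 1053 in ricolinostat macrophages, and 6902 and 8622 in vehicle macrophages. Emr1 in T cells stood at 3267 and 3781 under JQ1, 5602 and 1206 under ricolinostat, and 5154 and 5054 under vehicle. The 2 lowest Emr1 values were the second ricolinostat libraries, and among the other 10 both JQ1 libraries were lower than either vehicle library of their cell type.

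The 2 integrin alpha chains were both far higher in the libraries that stand apart. Itgax had signals of 3401 and 4027 in JQ1 macrophages, 4588 and 42604 in ricolinostat macrophages, and 5502 and 5709 in vehicle macrophages. T cell libraries gave Itgax signals of 2148 and 2918 under JQ1, 3293 and 26692 under ricolinostat, and 4426 and 5183 under vehicle. Both JQ1 groups were below both vehicle groups without overlap. Itgam had 210 and 128 in JQ1 macrophages, 96.5 and 1060 in ricolinostat macrophages, and 159 and 174 in vehicle macrophages. Itgam in T cells had 494 and 142 under JQ1, 161 and 1805 under ricolinostat, and 254 and 227 under vehicle. Over all libraries the cell types overlapped for Itgam, which rested on only 27 to 346 estimated counts per library outside the second ricolinostat libraries, against at least 1135 for each of the other 7 genes.

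Cd14, the lipopolysaccharide co-receptor, had signals of 11911 and 13816 in JQ1 macrophages, 13466 and 38589 in ricolinostat macrophages, and 8856 and 14590 in vehicle macrophages. T cells had Cd14 signals of 9832 and 12073 under JQ1, 10942 and 35970 under ricolinostat, and 12736 and 17005 under vehicle. The vehicle macrophage libraries alone differed by 1.65-fold, and the cell types overlapped. Cybb, the oxidase subunit, had 54524 and 63348 in JQ1 macrophages, 70078 and 30361 in ricolinostat macrophages, and 56489 and 70054 in vehicle macrophages. Its T cell signals were 31983 and 37915 under JQ1, 41438 and 26847 under ricolinostat, and 40001 and 45198 under vehicle. Without the second ricolinostat libraries, the lowest macrophage library was above the highest T cell library.

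Differences were tested on log2(signal + 1) with limma, and a Benjamini-Hochberg (BH) adjusted p below 0.05 over all genes tested counted as passing. Between macrophages and T cells, with all 12 libraries, none of the 8 genes passed under JQ1, ricolinostat or vehicle, while 5.46%, 5.77% and 10.6% of the 659 tested genes did, 0, 1 and 3 genes of them higher in macrophages and the rest lower. Quantile normalisation, which gives every library the same distribution, shifted this balance, with 3 genes higher and 25 lower under JQ1, 4 and 22 under ricolinostat and 13 and 45 under vehicle, and again none of the 8 among them. The libraries did not overlap for 5 of the 8 under JQ1 (Chil3, Cd68, Emr1, Itgax and Cybb, all higher in macrophages), beside 63.4% of all genes, for Chil3 under ricolinostat, beside 24.7%, and for 6 under vehicle, beside 68.7%. Under vehicle Cd68, Emr1, Itgax and Cybb were the higher ones and Lyz2 and Itgam the lower ones. None passed in the mean of the 3 treatments either, a contrast added after the values were seen, in which 18.8% of genes passed (14 higher and 110 lower, or 52 and 71 after quantile normalisation), and none of the 8 was free of overlap over 6 libraries against 6, as 8.50% of genes were. In that mean Cybb was nearest, at 0.60 ± 0.31 (log2 difference ± SE, adjusted p = 0.282), and the median of the 8 was 0.27 beside 0.02 for all genes. With pairs of 1 macrophage and 1 T cell library kept as blocks, a pairing read from running numbers in their labels, 4 of the 8 passed in the mean contrast beside 42.5% of all genes: Cybb at 0.60 (limma adjusted p = 0.0209), Itgax at 0.46 (0.0240), Cd68 at 0.37 (0.0413) and Itgam at -0.65 (0.0437).

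Without the second ricolinostat libraries, 3 of the 8 genes were higher in macrophages in the mean of the 3 treatments, where 44.1% of the 649 tested genes passed, 130 of them higher and 156 lower. All 3 members passed as higher, so their like background is the 130 higher genes of 649 and not the 44.1%. Whether the 8 genes exceed that share was not tested. Cybb averaged 64095 in macrophages and 39662 in T cells, 1.62-fold higher (log2 difference 0.69 ± 0.13 SE, 95% interval 0.37 to 1.01, limma adjusted p = 0.00928). Its groups did not overlap, 5 libraries against 5, which was so for 25.1% of all genes. Emr1 averaged 7124 in macrophages and 4743 in T cells (0.57 ± 0.13, limma adjusted p = 0.0178), and Cd68 averaged 42458 in macrophages and 32147 in T cells (0.41 ± 0.09, adjusted p = 0.0185). Both overlapped between the cell types over 5 libraries against 5. Leaving out each JQ1 or vehicle library in turn as well kept the Cybb call in 8 of 8 fits, the Emr1 call in 7, lost without vehicle T cell replicate 2 (adjusted p = 0.0503), and the Cd68 call in 4, lost without either vehicle T cell library, JQ1 T cell replicate 2 or JQ1 macrophage replicate 1 (adjusted p up to 0.0542). With each of the 10 libraries centred on its median, an alternative chosen after seeing the data, Cybb (0.63, limma adjusted p = 0.00404), Emr1 (0.51, 0.00890) and Itgax (0.36, 0.0421) passed beside 40.4% of genes, and Cd68 did not.

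The other 5 genes did not pass in that mean. Itgax was 0.42 ± 0.14 (95% interval 0.08 to 0.77, adjusted p = 0.0559) and Itgam -0.65 ± 0.40 (interval -1.65 to 0.35, adjusted p = 0.237). Itgax passed (adjusted p = 0.0397) and so did Itgam (-0.95, adjusted p = 0.0252) when JQ1 T cell replicate 2 was left out as well. Lyz2 was at -0.07 (interval -0.34 to 0.19), Chil3 at 0.14 (interval -0.28 to 0.56) and Cd14 at 0.05 (interval -0.45 to 0.56), so the intervals of the secreted products and the co-receptor reach no further than 0.56 in size. The value of Cybb minus any other member was not tested.

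**Figure D2:**
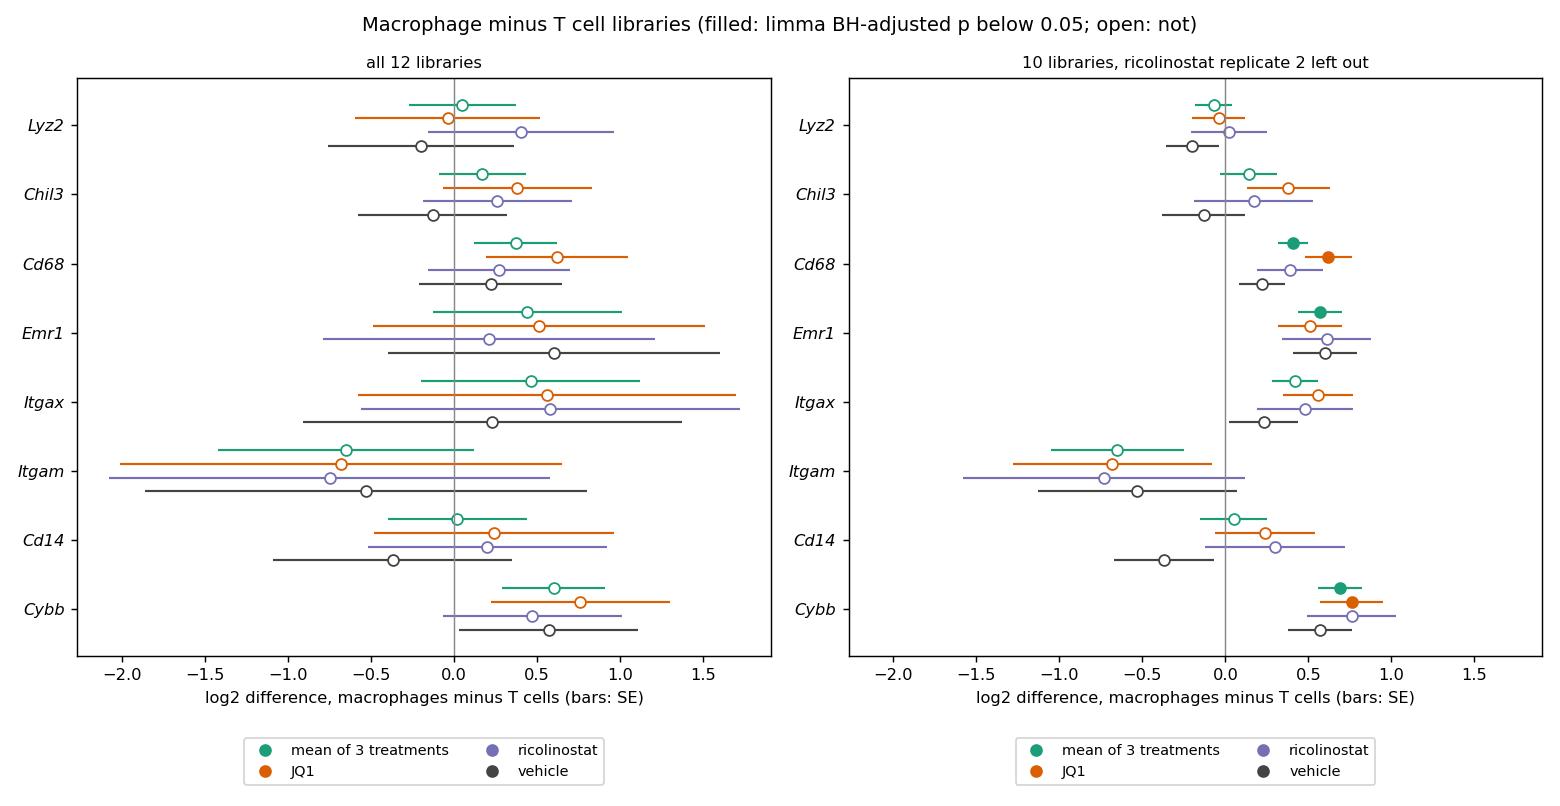
Log2 difference, macrophages minus T cells, of each gene under each agent and as the mean of the 3, with SE bars, over all 12 libraries on the left and without the second ricolinostat libraries on the right; filled points have a limma BH-adjusted p below 0.05. No point is filled over 12 libraries, and Cybb, Emr1 and Cd68 are filled over 10, Cybb and Cd68 also under JQ1.

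Within single treatments, 2 of the 8 genes were higher in JQ1 macrophages than in JQ1 T cells over the 10 libraries, where 23.6% of genes passed, 59 of them higher and 94 lower. Cybb averaged 58936 in JQ1 macrophages and 34949 in JQ1 T cells (0.76 ± 0.19, limma adjusted p = 0.0425), and Cd68 averaged 44053 in JQ1 macrophages and 28677 in JQ1 T cells (0.62 ± 0.14, adjusted p = 0.0356). These calls depended on single libraries: over 10 fits that each left out 1 more library, Cybb passed in 2 and Cd68 in 4, with adjusted p up to 0.177 and 0.143, each losing its call without any one JQ1 library of either cell type, without either vehicle T cell library and, for Cybb, without either vehicle macrophage library. Centred on the median, Cybb passed under JQ1 (0.75, limma adjusted p = 0.0171) beside 23.4% of genes and Cd68 did not. Under vehicle none passed beside 23.6% of genes, with Emr1 at 0.60 ± 0.19 (adjusted p = 0.0823) and Cybb at 0.57 ± 0.19 (adjusted p = 0.0913), and both passed once centred (0.55, adjusted p = 0.0396, and 0.52, adjusted p = 0.0430), beside 24.7% of genes. Under ricolinostat, with 1 library per cell type left and the spread borrowed from the other groups, none passed while 65 of 649 genes did, and Cybb stood at 0.76 ± 0.27 (adjusted p = 0.146).

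The JQ1 T cell libraries, to which both of those genes were compared, also carried the most epithelial signal. The summed signal of Epcam, Cdh1 and Muc1 was 16245 and 16096 in JQ1 T cells, 13827 and 8449 in ricolinostat T cells, and 6442 and 7365 in vehicle T cells, against 2626 to 4316 in the macrophage libraries. The part of this signal in the differences was not tested.

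Genes that work with the 8 were read from lists of known function, chosen with earlier results of these data known. Of 39 other macrophage and monocyte genes, 17 were higher and 4 lower in macrophages in the mean of the 3 treatments over 10 libraries, where 130 of all 649 genes were higher and 156 lower. With all 12 libraries none of the 39 was higher and 4 were lower, where 14 of all 659 genes were higher and 110 lower. Those lower over 10 libraries included the complement genes C1qa (-3.03) and C1qb (-2.82) and the fractalkine receptor Cx3cr1 (-2.75). A list of 11 lung macrophage receptors and regulators shares genes with the 39, Mrc1, Msr1 and Marco among them, so the counts are not separate. Of these 11, 7 were higher and none lower over 10 libraries, and with all 12 none passed in either direction. Those higher included the mannose receptor Mrc1 at 0.75 ± 0.11 (limma adjusted p = 0.00403) and the scavenger receptor Msr1 at 0.57 ± 0.13 (adjusted p = 0.0168). Marco, another scavenger receptor, at 0.88 (adjusted p = 0.240) and the fibronectin gene Fn1 at -1.0 (adjusted p = 0.115) did not pass. This list's median was 0.47 beside 0.07 for all genes.

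Direct partners of the members, named for their role after their values were seen, gave the following. Itgb2, the beta chain that pairs with both CD11b and CD11c, had 25865 and 27306 in JQ1 macrophages, 26962 and 137325 in ricolinostat macrophages, and 28387 and 29811 in vehicle macrophages. Its T cell signals were 15725 and 17068 under JQ1, 18427 and 83801 under ricolinostat, and 22114 and 24996 under vehicle. Over the 10 libraries Itgb2 was higher in macrophages in the mean contrast (0.52 ± 0.09, limma adjusted p = 0.00912), whereas with all 12 it did not pass (0.55 ± 0.50, adjusted p = 0.616). Ncf4, a cytosolic subunit of the NADPH oxidase and the only other one on the panel, was 0.37 ± 0.10 (adjusted p = 0.0308) over 10 libraries, beside 0.69 for Cybb. The CD14 partners Tlr4 and Ly96, which form the lipopolysaccharide receptor, were 0.67 ± 0.11 (adjusted p = 0.00708) and 0.39 ± 0.10 (adjusted p = 0.0264), beside 0.05 for Cd14 itself. With all 12 libraries none of these 3 partners passed (adjusted p = 0.618 for Ncf4, 0.974 for Tlr4 and 0.797 for Ly96). Whether the receptor genes differ from Cd14 in this contrast was not tested.

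The lists by role were mixed, and their counts include Itgb2, Tlr4 and Ly96, given above. Of 12 integrins 2 were higher and 5 lower in macrophages over 10 libraries, the lower ones led by Itgb4 (-5.32), Itga2 (-4.48), Itgb3 (-2.38) and Itga6 (-2.36). Of 15 lipopolysaccharide sensing genes 7 were higher, including the receptor Tlr6 (0.76), and 2 lower, the binding protein Lbp (-5.30) and the receptor Tlr1 (-1.17). Of 7 tested lysosomal and chitinase-like genes 3 were higher, with the protease gene Ctsl at 0.46 and the membrane glycoprotein Lamp1 at 0.37, and 2 lower, Lamp3 (-5.52) and the protease gene Ctsh (-1.29). Over the same 10 libraries 130 of all 649 genes were higher and 156 lower. With all 12 libraries no gene of these 3 lists was higher, and 5, 1 and 2 were lower. Of all 659 genes tested there, 14 were higher and 110 lower.

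JQ1 against vehicle in macrophages moved none of the 8 genes past the threshold, and no gene of the 564 tested passed, 0% (7 had an unadjusted p below 0.05). The largest differences were Emr1 at -0.62 ± 1.07 and Itgax at -0.60 ± 1.11 (limma adjusted p = 0.999 for both), and neither overlapped between the groups, nor did Lyz2, as was so for 51.6% of genes. Without the second ricolinostat library in the estimate of the spread they were -0.62 ± 0.23 and -0.60 ± 0.18 (adjusted p = 0.343 and 0.327), and still no gene passed. Lyz2 (0.04), Chil3 (0.05), Cd68 (-0.02), Itgam (-0.02) and Cybb (-0.10) lay close to 0, and Cd14 stood at 0.17. Emr1 and Itgax were the 2 members below the median of all genes by more than 0.1, that median being -0.20.

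JQ1 against vehicle in T cells left 7 of the 8 genes with negative differences, beside 26.0% of all genes with a positive one, and none passed, while 5.56% of the 630 genes tested passed, all of them lower. The median of the 8 was -0.42, close to the -0.38 of all genes, and after quantile normalisation, which brings that of all genes to 0.00, Lyz2 (0.24), Cd68 (0.06) and Cybb (0.04) turned positive. Itgax averaged 2533 in JQ1 T cells and 4804 in vehicle T cells (-0.94 ± 1.02, limma adjusted p = 0.956), and -0.94 ± 0.24 (95% interval -1.61 to -0.26, adjusted p = 0.0754) without the second ricolinostat library, where 16.3% of genes passed. Emr1 was at -0.54, Chil3 at -0.47, Cd14 at -0.43, Cd68 at -0.42, Cybb at -0.29 and Lyz2 at -0.13. The groups did not overlap for Chil3, Cd68, Emr1, Itgax, Cd14 and Cybb, 6 of 8, beside 67.8% of all genes. Itgam had its widest replicate gap outside the ricolinostat groups here, 494 against 142. No member passed the test of the difference in JQ1 effect between macrophages and T cells (limma adjusted p = 1.0 with all libraries and at least 0.383 without the second ricolinostat libraries), while 0.910% and 5.55% of genes passed it.

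Ricolinostat against vehicle gave no call for any of the 8 genes in either cell type, and no gene on the panel passed in macrophages (0%, 16 with an unadjusted p below 0.05) or in T cells (0%, 18). Of the 8, only Lyz2 in T cells had groups that did not overlap, beside 38.3% of genes there and 27.8% in macrophages. The values, and for some genes the direction, depended on which ricolinostat library entered. In macrophages Emr1 stood at -1.36 ± 1.07, Itgax at 1.32 ± 1.11, Cd14 at 1.0 ± 0.76 and Itgam at 0.94 ± 1.19 with both libraries (limma adjusted p = 0.570 to 0.656). Without replicate 2 the same genes stood at 0.15 for Emr1, -0.29 for Itgax, 0.24 for Cd14 and -0.78 for Itgam (adjusted p = 0.997), and without replicate 1 at -2.87, 2.93, 1.76 and 2.67 in the same order (adjusted p = 0.00275 to 0.0262, with Cybb at -1.05 also passing), where 65.8% of all genes passed.

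In T cells under ricolinostat, Itgam, Itgax, Emr1, Cd14 and Cd68 changed sign with the library left out, and Lyz2 stayed negative. Cd14 stood at 0.43 ± 0.71 with both libraries and at -0.43 without replicate 2. Cd68 stood at -0.15 ± 0.49 with both and at 0.09 without replicate 1. Itgam stood at 1.17 ± 1.25, Itgax at 0.97 ± 1.02, Emr1 at -0.97 ± 0.81 and Lyz2 at -0.87 ± 0.63 with both libraries (limma adjusted p = 0.657 to 0.690). Without replicate 2 they were -0.57 for Itgam, -0.54 for Itgax, 0.13 for Emr1 and -0.17 for Lyz2 (adjusted p = 0.488 to 0.790). Without replicate 1 they were 2.91, 2.48, -2.08 and -1.57 in the same order (adjusted p = 0.00434 to 0.0477, with Cd14 at 1.29 also passing), where 60.1% of all genes passed. A single library then stands for the ricolinostat group, and its own spread is assumed to be that of the other groups. No member passed the test of the difference in ricolinostat effect between the cell types, in which no gene passed (limma, 0% of genes) with all libraries, where 12 had an unadjusted p below 0.05, or without the second ricolinostat libraries, where 29 did.

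**Figure D3:**
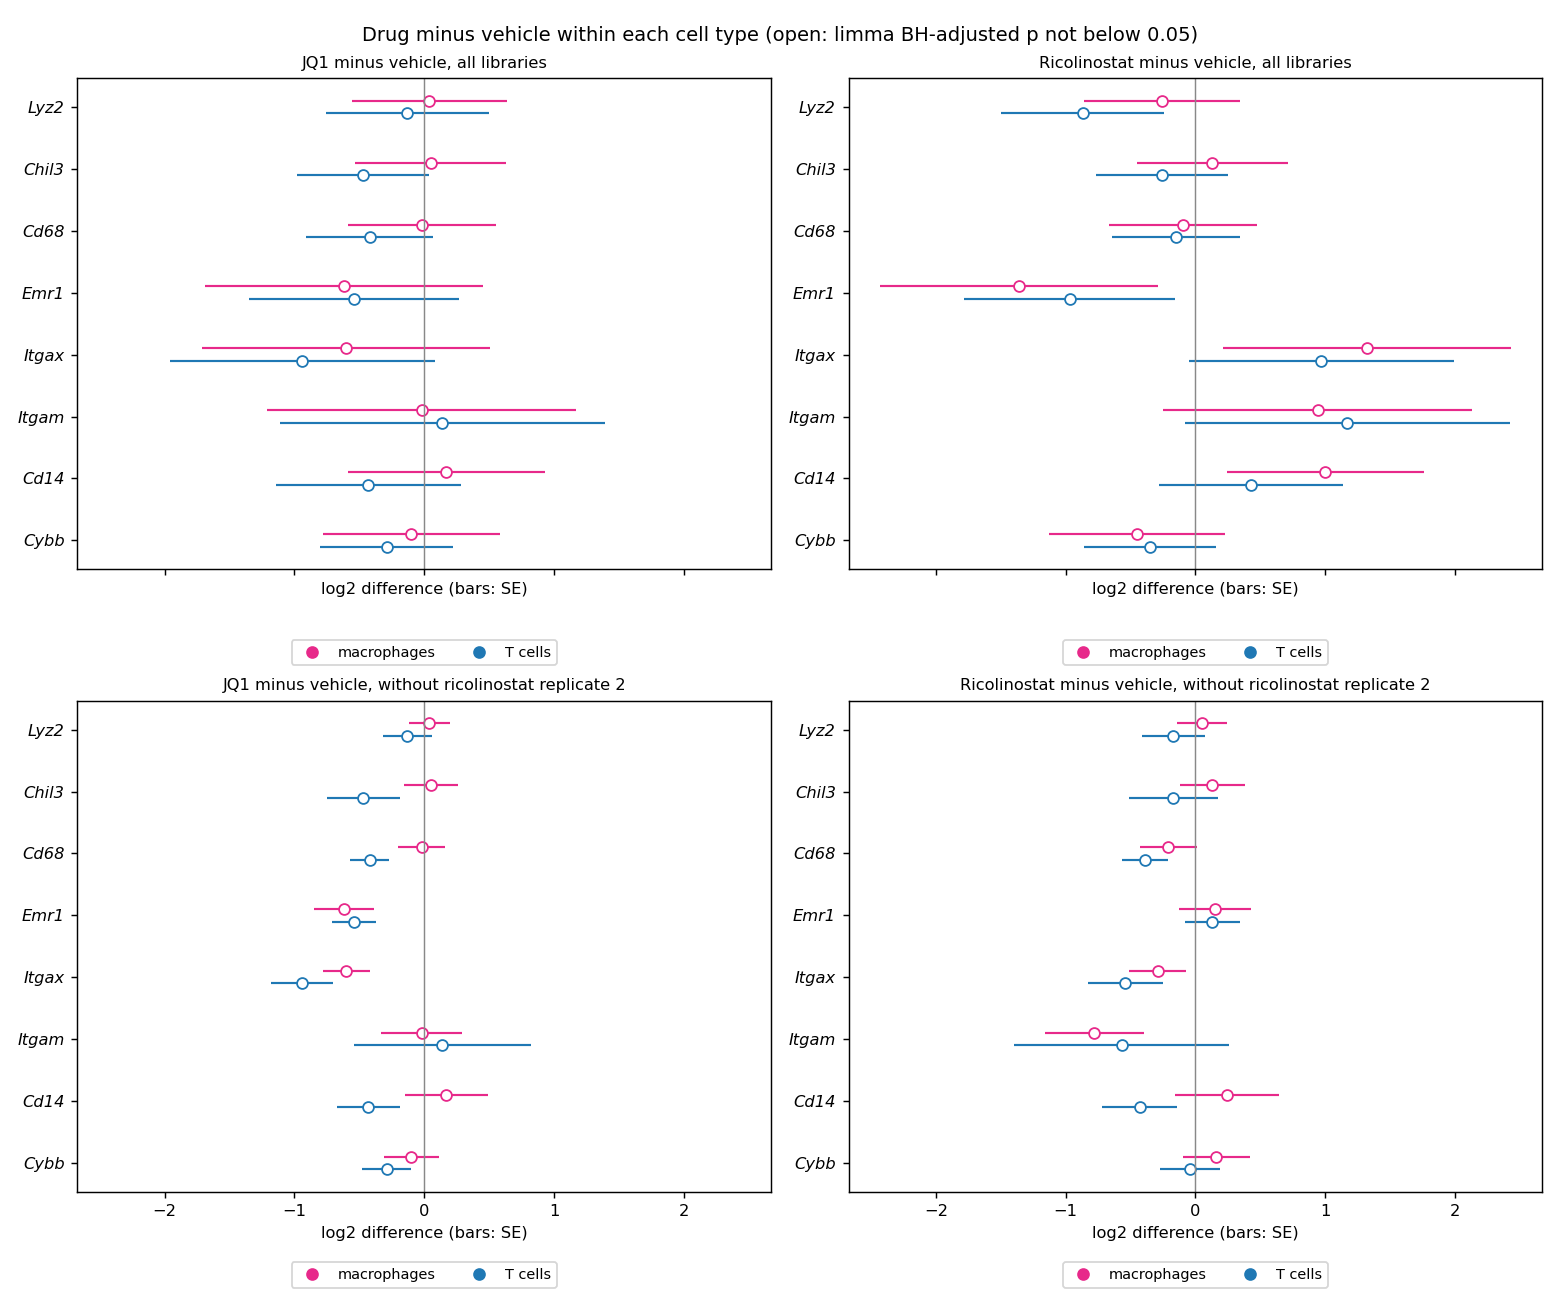
Log2 difference, drug minus vehicle, of each gene in macrophages and T cells with SE bars, for JQ1 on the left and ricolinostat on the right, over all libraries above and without the second ricolinostat libraries below; all points are open because no limma BH-adjusted p was below 0.05. The ricolinostat points of Emr1, Itgax and Itgam change side between the upper and lower panels in both cell types, and the JQ1 points do not move while their SE bars shorten.

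The departure of the second ricolinostat libraries was alike in both cell types. Replicate 2 minus replicate 1 on the log2 scale was 3.44 in macrophages and 3.48 in T cells for Itgam, 3.21 in macrophages and 3.02 in T cells for Itgax, and 1.52 in macrophages and 1.72 in T cells for Cd14. It was -3.02 in macrophages and -2.21 in T cells for Emr1, -1.21 in macrophages and -0.63 in T cells for Cybb, and -0.63 in macrophages and -1.40 in T cells for Lyz2. Cd68 (0.22 in macrophages, 0.47 in T cells) and Chil3 (0.01 in macrophages, -0.17 in T cells) departed least. The integrin chains and Cd14 were higher there and Emr1, Cybb and Lyz2 lower. In the 4 JQ1 and vehicle groups the median size over the 8 genes was 0.21 to 0.28, with Itgam in JQ1 T cells (-1.80) the largest.

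Partners followed the members in part. Itgb2 stood with its alpha chains in both second ricolinostat libraries, as given above. Tlr4 was 16.1 in that macrophage library, against 3617 to 4677 in the other macrophage libraries, and 92.5 in that T cell library, against 2344 to 2722 in the other T cell libraries. Cd14 and Tlr4 thus departed in opposite directions there. Over all tested genes the standard deviation of the replicate difference was 2.63 in ricolinostat macrophages and 2.19 in ricolinostat T cells, against 0.688 to 0.872 in the other groups. The sum of 20 housekeeping genes was 545471 in that macrophage library and 304144 in that T cell library, against 106521 to 144057 in the other 10. Their median was 1438 in that macrophage library and 1462 in that T cell library, within the 1255 to 1623 of the other 10. The part of the higher sums in the differences was not tested.

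**Figure D4:**
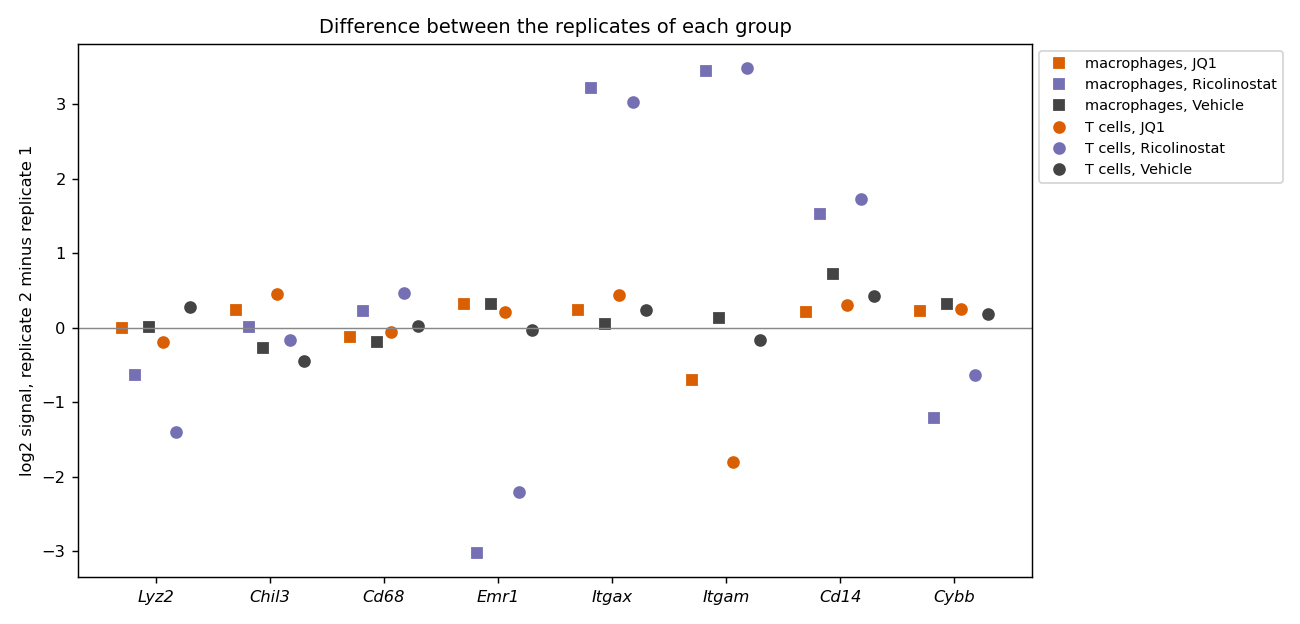
Log2 signal of replicate 2 minus replicate 1 for each gene in each of the 6 groups; squares are macrophages, circles T cells, and colour marks the agent. The ricolinostat points of Itgax, Itgam and Cd14 lie 1.52 to 3.48 above 0 and those of Emr1 at -3.02 and -2.21, while most other points lie near 0.

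The genes most like each member were taken as the 3 with the highest Pearson r of log2 signal over the 10 libraries. These libraries span both cell types and all 3 agents, so r also takes in differences between groups and any shared effect of normalisation. Cybb ran with Mrc1 (r = 0.98), Tlr4 (0.98) and Epsti1 (0.97), and over all 12 libraries at 0.69, 0.71 and 0.77. Epsti1 reached no more than 23.2 in signal, near background. Itgax ran with Tnfsf12 (0.98) and Irf8 (0.97), an interferon regulatory factor of myeloid cells, and over 12 libraries Irf8 kept 0.99 while Tnfsf12 had 0.18. Cd68 was most like Cd9 (0.96), a tetraspanin, Lcp1 (0.95), an actin-bundling protein, and Lgals3 (0.95), which encodes galectin-3, of which Lcp1 alone stayed high over 12 (0.92).

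Emr1 was most like Il13ra1, Rrad and Stat3 (r = 0.95 each over 10 libraries), at 0.64, 0.76 and -0.81 over 12. Cd14 was most like Trem1 (0.92), an amplifier of innate receptor signals, Tnfaip3 (0.91), an inhibitor of NF-kB signalling, and Relb (0.88), an NF-kB subunit, and over 12 at 0.99, -0.07 and 0.96. Itgam was most like Abca1 (0.92), a cholesterol exporter, Ccl24 (0.85) and Hif1a (0.85), and over 12 at 0.42, 0.76 and 0.95. Lyz2 had its highest r with CD209e (0.89) and Chil3 with Il22ra2 (0.85), both near background. After these, Lyz2 was most like Runx3 (0.80) and Itgb1 (0.78), and Chil3 like Cd1d1 (0.77) and the scavenger receptor gene Marco (0.76). Runx3 lay between 2.12 and 82.9 in signal over the 10 libraries, so in part also near background. Over 12 libraries Lyz2 stood at -0.73 with Runx3 and -0.77 with Itgb1, a reversed sign, and Chil3 at 0.65 with Cd1d1 and 0.60 with Marco. Among the members themselves, Emr1 and Cybb (0.85) and Emr1 and Itgax (0.82) were the most alike pairs over 10 libraries. Over 12, Emr1 and Cybb stood at 0.86 and Emr1 and Itgax at -0.74.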

How the data were processed

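Each library has 1 column of normalised signal for 770 genes in the deposited table. How the authors normalised the signal was not given in the sources used here, and its step size was read from the low values. Of the 8 symbols 7 matched the RefSeq table (GRCm38.p6) and Emr1 matched by synonym. From the deposited values, log2(signal + 1) was fitted with limma 3.58.1 in R 4.3.3, with 1 mean per group, moderated variances and two-sided p-values, adjusted by Benjamini-Hochberg over all tested genes (signal above 20 in at least 2 libraries of the fit; 20 housekeeping genes not tested). Drug effects used the 6 libraries of a cell type, the other contrasts all 12. A log2 difference on this scale understates changes of low genes. Named genes were the 8 members, the 3 most like each, and up to 4 list genes with the largest differences; members and lists were chosen with earlier results of these data known. Some items that this rule names are not reported here. Alternatives were a pseudocount of 10, no filter, median centring, quantile normalisation, left-out libraries, fits of 2 groups and a replicate block. The block pairs libraries whose last label numbers differ by 6. Within pairs the departures from the group mean correlated at 0.250 under JQ1, 0.790 under ricolinostat and 0.135 under vehicle over 659 genes. With 2 libraries per group the other pairing gives the same sizes with a negative sign, so these values cannot establish the pairing. The fit was tested on simulated data. Replicates were numbered in record order.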

Additional observations from a re-analysis of the deposited data

How the results depend on the processing

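Member differences were recomputed under each alternative that applies to their contrast, and those for effects compared between cell types as counts of genes only. Of these values 954 kept their direction and their side of the threshold, 52 kept their direction and newly passed, and 82 changed sign; none of the 8 genes passed with all libraries, so no call could be lost there. A pseudocount of 10, no filter on low signal and a fit of the compared groups alone changed no sign. The cause of the changes was not tested, except that leaving out the second ricolinostat libraries removes the values described above. The groups hold 2 libraries, which limits what any test can show, and Itgam rests on few counts.

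Without both second ricolinostat libraries, the genes passing for macrophages minus T cells numbered 153 under JQ1 (36 with all 12), 65 under ricolinostat (38), 153 under vehicle (70) and 286 in the mean (124), for JQ1 minus vehicle in T cells 102 (35), and for the JQ1 effect compared between cell types 36 (6). The signs that turned were Lyz2 in the mean (-0.07), and for ricolinostat minus vehicle Lyz2 (0.05), Emr1 (0.15), Itgax (-0.29), Itgam (-0.78) and Cybb (0.16) in macrophages and Emr1 (0.13), Itgax (-0.54), Itgam (-0.57) and Cd14 (-0.43) in T cells. Median centring added to this gave 152, 82, 160 and 262 genes in the same order for macrophages minus T cells, with Lyz2 at -0.11 under ricolinostat and -0.13 in the mean and Cd14 at -0.01 in the mean.

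The replicate block gave 76 genes under JQ1, 106 under vehicle, 280 in the mean and 3 for the JQ1 effect compared between cell types, and beyond the 4 members named in the mean it changed no member's call. A larger pseudocount gave 10 genes for that last comparison. For JQ1 minus vehicle in T cells quantile normalisation gave 17 genes, median centring 23 and a fit of the compared groups alone 110.

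Quantile normalisation turned, for macrophages minus T cells, Cd14 (-0.09) under ricolinostat, Lyz2 (0.19) and Itgam (0.38) under vehicle, and Chil3 (-0.06), Itgam (0.06) and Cd14 (-0.12) in the mean; for JQ1 minus vehicle Cd68 (0.16), Itgam (0.37) and Cybb (0.03) in macrophages and Lyz2 (0.24), Cd68 (0.06) and Cybb (0.04) in T cells; and Cd14 (-0.04) for ricolinostat minus vehicle in T cells. Median centring turned Cd68 (0.25), Itgam (0.26) and Cybb (0.18) for JQ1 minus vehicle in macrophages, Lyz2 (0.10) for the same in T cells and Cd68 (0.01) for ricolinostat minus vehicle in macrophages. The median of all genes for JQ1 minus vehicle was 0.08 in macrophages and -0.14 in T cells under median centring, against -0.20 and -0.38 as deposited.

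Leaving out single libraries, and under JQ1 and in the mean also in addition to both second ricolinostat libraries, gave, for macrophages minus T cells, 15 to 154 genes under JQ1, 13 to 51 under ricolinostat, 17 to 90 under vehicle and 92 to 266 in the mean. For the drug effects it gave 0 to 102 genes for JQ1 in T cells, where each JQ1 or vehicle library brought the count to 0, 0 to 361 for ricolinostat in macrophages and 0 to 375 in T cells, and 0 to 14 and 0 to 5 for the JQ1 and ricolinostat effects compared between cell types. Members whose sign turned ranged as follows for macrophages minus T cells: under JQ1 Lyz2 -0.13 to 0.06 and Itgam -1.58 to 0.21, under vehicle Chil3 -0.36 to 0.10, and under ricolinostat Lyz2 -0.30 to 1.10, Emr1 -1.30 to 1.72, Itgax -1.03 to 2.18, Itgam -2.49 to 0.99, Cd14 -0.66 to 1.06 and Cybb -0.14 to 1.07. In the mean Lyz2 ranged over -0.18 to 0.29, Emr1 -0.07 to 0.94, Itgax -0.08 to 0.99 and Cd14 -0.27 to 0.31. For JQ1 minus vehicle in macrophages Chil3 ranged over -0.10 to 0.19, Cd68 -0.11 to 0.07, Itgam -0.37 to 0.34, Cd14 -0.19 to 0.53 and Cybb -0.25 to 0.06, and in T cells Lyz2 -0.27 to 0.01 and Itgam -0.76 to 1.04. For ricolinostat minus vehicle, Chil3 ranged over -0.01 to 0.27 and Cd68 -0.19 to 0.01 in macrophages, and Cd68 -0.16 to 0.09 in T cells.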
